A study of Mus musculus with 10 samples.

Results

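The Myc, Max and Mxd network was followed through 8 genes, namely Myc, Max, Mxd1, Mxd3, Mxd4, Mxi1, Mlx and Mga. They were picked by name from the 53465 genes of the count table, as known parts of the network, and all 8 were among the 14110 genes with enough counts to be tested. The group was chosen from measured values as well: the counts of these same libraries were known when it was proposed. Its levels and differences are therefore given as a description. A member said to be called is described in the same way, and its call is no test of the choice. Adjusted p-values are printed for other genes alone, and their lists were also chosen with earlier results of these data known. Network genes outside the 8 (Mycn, Mycl, Mnt, Mlxip and Mlxipl) and lists of cofactors and target genes are reported after them.

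The libraries came from erythroblasts, the nucleated precursors of red blood cells, isolated with a Miltenyi Biotec kit from spleens of C57BL/6 mice. The spleens were taken on day 11 after 5-FU, a drug that kills dividing blood precursors and is followed by a wave of new red cell formation. Each group had this treatment, so no untreated spleen serves as a reference. The 4 genotypes were wild type (n = 2), miR-144/451-/- (n = 2), Nrf2-/- (n = 3) and Nrf2/miR-144/451-/- (n = 3), called wild type, miR-144/451-null, Nrf2-null and double-null here. The miR-144/451 cluster encodes microRNAs made at high levels in erythroid cells, and Nfe2l2 encodes Nrf2, which switches on antioxidant genes. The labels describe neither the knockout alleles nor the mice behind each library, so the spread behind each p-value is that between libraries, which may be technical.

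Myc binds DNA as a pair with Max at E-box sequences and raises transcription of genes for growth, ribosome production and division. Mxd1, Mxi1, Mxd3 and Mxd4 also pair with Max at E-boxes, but bring in the Sin3 and histone deacetylase corepressor, so that Myc and the Mxd proteins compete for one partner. Mlx pairs with some Mxd proteins and with the glucose-responsive factors Mlxip (MondoA) and Mlxipl (ChREBP), and Mga, a very large Max partner, belongs to a Polycomb repressor complex with E2f6. In red cell formation Myc is high in early dividing precursors and declines as they mature, while Mxd1 is known for rising in maturing blood cells and Mxd3 for its link to the S phase of dividing cells.

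Of the mature microRNAs of the cluster, miR-144-3p and miR-451a are shown first, because a seed match in a 3′ UTR is the direct route by which they could act on a member. The other strand of the first hairpin, miR-144-5p, was not searched. Capitals mark the seed, bases 2 to 8. Both are from RefSeq (GRCm38.p6) and lie on the plus strand, miR-144-3p at chr11:78073047-78073066 and miR-451a at chr11:78073186-78073207.
miR-144-3p: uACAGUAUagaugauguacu
miR-451a: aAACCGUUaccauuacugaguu
For every gene the longest 3′ UTR in the annotation was searched for the 7-base match to either seed. ATACTGT, the match to miR-144-3p, was in none of the 8 members, against 1558 of the 11701 tested genes with a 3′ UTR (13.3%). AACGGTT, the match to miR-451a, was in 226 of those genes (1.93%), and in 1 member, Myc. The Myc match began at base 49 of its 466-base 3′ UTR, at chr15:61989945-61989968 on the plus strand (GRCm38, GENCODE M21), and is in capitals here.
Myc 3′ UTR site: gagagtaaggagAACGGTTccttc
A match is a description of the letters and shows no binding.

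The starts of the genes were also read, because the E-box is the sequence that these proteins bind. RefSeq promoter windows of GRCm38.p6, from 250 bases before to 50 bases after the start, were held for 7 of the 8 members. None was held for Myc, so its start was not searched. The palindrome CACGTG was in 2349 of 32851 windows (7.15%) and in those of 3 members, Max, Mlx and Mxd4. Counted from the start, its first base lay at -3 in Max, -40 in Mlx and -219 in Mxd4. The excerpts lie at chr12:76962235-76962262 (minus strand) for Max, chr11:101087239-101087266 (plus) for Mlx and chr5:34187913-34187940 (minus) for Mxd4, with the E-box in capitals.
Max E-box: gtgagcccggtCACGTGttagggggccg
Mlx E-box: gtgggttggatCACGTGactgagcctcg
Mxd4 E-box: ggctgggccacCACGTGctgttgctaag
Mxd3 had no CACGTG in its window. It was the only one of these 7 members with GCGGGAA, a sequence of the type bound by E2F factors of the cell cycle, searched on both strands and present in 1511 of the 32851 windows (4.6%). Its upstream stretch of 158 bases, at chr13:55329824-55329981 on the minus strand, is printed because Mxd3 had the largest differences of the 8 genes, with GCGGGAA in capitals.
Mxd3 upstream: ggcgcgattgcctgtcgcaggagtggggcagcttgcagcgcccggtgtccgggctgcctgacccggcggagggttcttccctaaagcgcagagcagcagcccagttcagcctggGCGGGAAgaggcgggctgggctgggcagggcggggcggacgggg

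Library totals were 13087827 to 15131036 counts. Mir144 had 12 and 17 counts in the wild type libraries, 9, 13 and 16 in Nrf2-null, and 0 in each of the 5 libraries without the cluster. Nfe2l2 was at 46.1 to 55.6 normalised CPM (counts scaled to library size with TMM factors) in Nrf2-null and at 58.2 and 63.5 in wild type, and with the deleted part not described its counts do not check the Nrf2 genotype. Xist stood at 22993 and 21421 counts in the wild type libraries and 17506 in double-null replicate 3, all with at most 2 Y-linked counts, against at most 56 Xist counts and at least 3418 Y-linked counts in the other 7. Those 3 libraries thus read as female and the others as male. Sex and genotype therefore cannot be told apart in miR-144/451-null against wild type or Nrf2-null against wild type, while double-null against Nrf2-null can be repeated in males by leaving out replicate 3. Erythroid markers summed to 91200 to 160000 CPM in each library, and B cell, T cell, NK cell, macrophage, neutrophil and megakaryocyte markers were also present, with none at 0 in any group.

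Mxd3 separated the genotypes furthest. It was at 68.7 and 96.4 CPM in wild type and at 19.6 and 22.2 in miR-144/451-null. It was at 108.5, 98.0 and 142.7 CPM in Nrf2-null and at 15.1, 11.3 and 19.0 in double-null. The 5 libraries without the cluster were thus all below the 5 with it, and the lowest library with the cluster had more than 3 times the level of the highest without.
Mxd3 encodes the Mxd protein tied to proliferating cells. Its mean went from 82.5 ± 19.5 (SD, n = 2) in wild type to 20.9 ± 1.85 (n = 2) in miR-144/451-null, a log2 difference of -1.98 ± 0.27 (SE), or 3.94-fold lower. With Nrf2 absent it was 116.4 ± 23.4 (n = 3) in Nrf2-null against 15.1 ± 3.89 (n = 3) in double-null, a log2 difference of -2.94 ± 0.23, or 7.69-fold lower. Both passed the adjusted p threshold of 0.05, which also called 4.63% of all genes in the first comparison and 27.3% in the other. These are the values that chose the gene.
In males alone, without double-null replicate 3, the Mxd3 log2 difference between double-null and Nrf2-null was -3.13 ± 0.25, and it was called under each of 16 other settings there. The difference from wild type to miR-144/451-null was called under 13 of 16, and lost with a term for sex (-1.45 ± 0.38), without wild type replicate 3 (-1.71) and without miR-144/451-null replicate 1 (-1.89). In bulk RNA, fewer cells of a type and less RNA per cell cannot be told apart. Exons of Mxd3 share 4.43% of their bases with Prelid1 on the opposite strand, and whether counting used strand is not given in the sources used here.

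**Figure D1:**
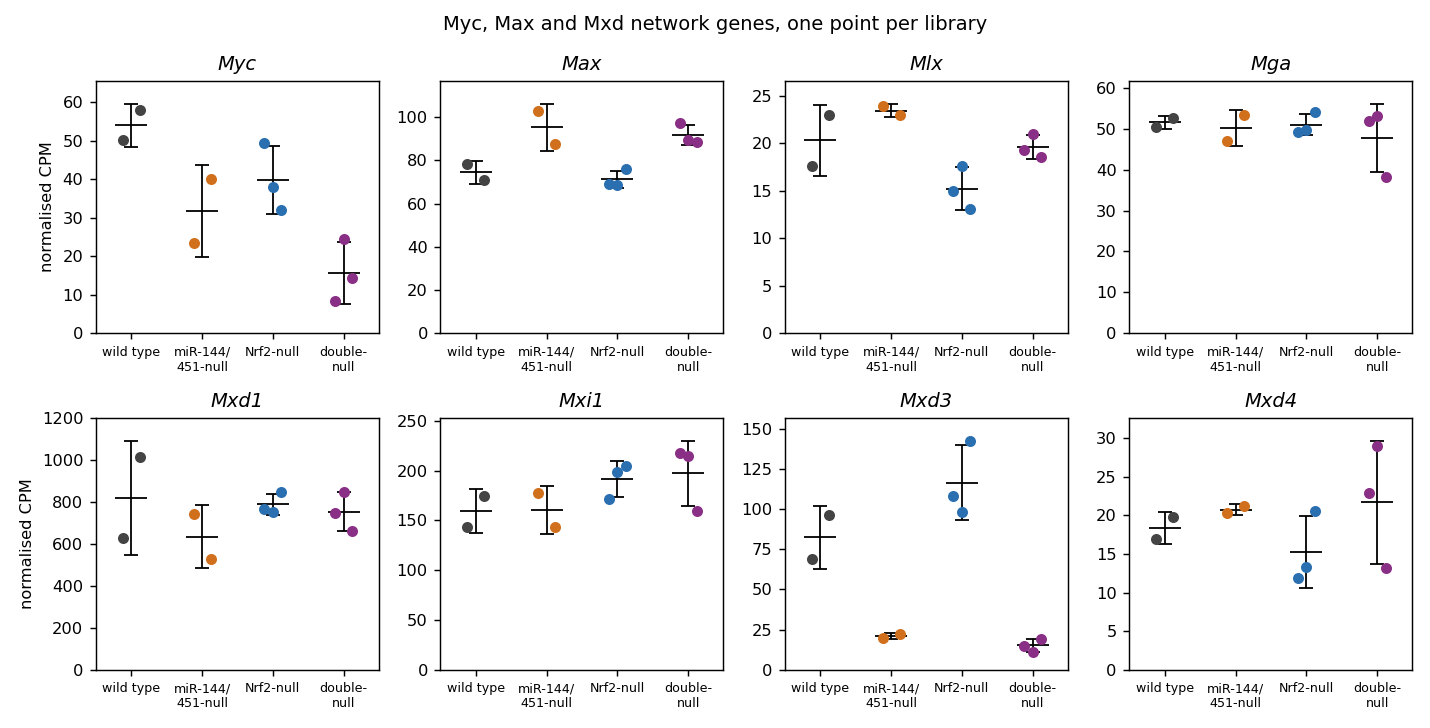
Normalised CPM (y axis, from 0) of the 8 genes in each library, by genotype; points are libraries, and the bar and whiskers are the mean and SD (n = 2, 2, 3 and 3). Mxd3 lies at 11.3 to 22.2 CPM in the 5 libraries without the cluster and at 68.7 to 142.7 in the 5 with it, while Mxd1, Mxi1 and Mga overlap between genotypes.

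Myc, the activating partner of Max, was lower in the libraries without the cluster, with a wider spread than Mxd3. It was at 50.1 and 58.0 CPM in wild type and at 23.4 and 40.1 in miR-144/451-null. It was at 49.5, 37.9 and 32.0 CPM in Nrf2-null and at 8.25, 24.4 and 14.3 in double-null. The groups did not overlap within either comparison, but miR-144/451-null replicate 3 lay above 2 of the 3 Nrf2-null libraries, so the 5 libraries without the cluster overlapped the 5 with it.
From 39.8 ± 8.92 CPM (SD, n = 3) in Nrf2-null to 15.6 ± 8.16 (n = 3) in double-null the Myc log2 difference was -1.35 ± 0.36 (SE), a called difference of 2.55-fold. It was called under 13 of 16 other settings, and lost with a term for sex (-1.29 ± 0.43), without Nrf2-null replicate 1 (-1.16) and in males alone (-1.25 ± 0.43). From 54.1 ± 5.55 CPM (n = 2) in wild type to 31.7 ± 11.9 (n = 2) in miR-144/451-null it was -0.77 ± 0.43, not called. The counts of Myc were known when it was chosen, so the call describes these values and is no test of the choice. The part of the miR-451a match in these values was not tested.

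Over the 10 libraries Myc and B cell transcripts varied together. The summed level of 7 B cell markers (Cd79a, Cd79b, Ms4a1, Cd22, Pax5, Cr2 and Fcer2a) was 527 and 865 CPM in wild type and 186 and 421 in miR-144/451-null. It was 388, 357 and 450 CPM in Nrf2-null and 83.4, 150.0 and 87.0 in double-null. On a log2 scale Pearson's r with Myc was 0.94 over the 10 libraries, which share the genotype groups. Within Nrf2-null the order differed, since replicate 3 had the highest B cell sum and the lowest Myc. The same r was 0.88 for T cell and 0.81 for NK cell markers, and -0.44 for erythroid markers.
All 7 B cell markers fell in double-null against Nrf2-null by edgeR's quasi-likelihood test, with a median log2 difference of -1.86. Of all tested genes 12.9% were called lower there. From wild type to miR-144/451-null the median was -1.06, and edgeR called none of the 7, 5 had an unadjusted p under 0.05 and DESeq2 called 3. Over all 14110 tested genes edgeR called 653 in that comparison and DESeq2 1071. Summed T cell markers were at 50.8 to 75.4 CPM in wild type, 26.3 to 42.8 in miR-144/451-null, 52.5 to 63.1 in Nrf2-null and 12.9 to 48.2 in double-null. NK cell markers summed to 9.53 to 11.6, 6.64 to 9.68, 14.3 to 21 and 2.6 to 10.7 CPM in the same order. The part of these cells in the level of Myc was not tested.

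**Figure D2:**
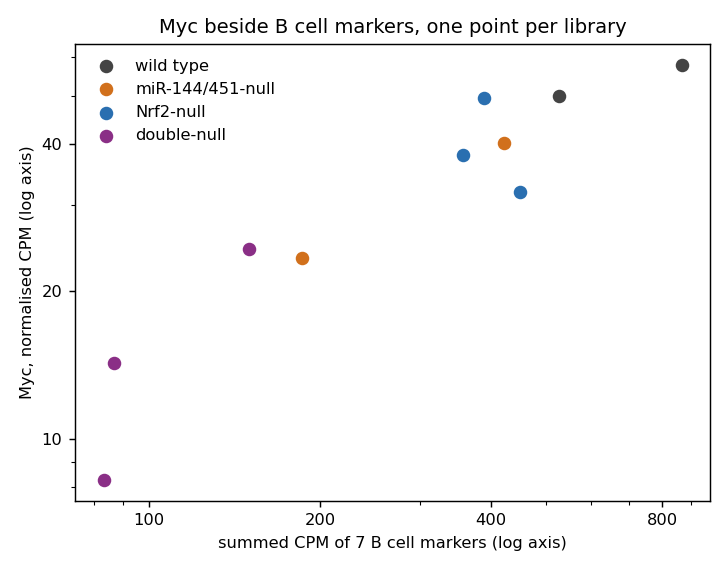
Myc (y axis, normalised CPM, log axis) against the summed CPM of 7 B cell markers (x axis, log axis), 1 point per library, coloured by genotype. The 3 double-null libraries have the lowest B cell marker sums, 83.4 to 150.0 CPM, with Myc at 8.25 to 24.4 CPM, close to miR-144/451-null replicate 1 at 23.4; the wild type libraries are highest on both axes.

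The 5 genes whose log2 CPM was most like that of Myc over the 10 libraries, among 8407 genes with a mean of at least 5 CPM, were Il9r (r = 0.979), Dtx1 (0.973), Hlcs (0.973), Slc44a2 (0.971) and Mical1 (0.969). Il9r encodes the receptor of interleukin 9, and Dtx1 a regulator of Notch signalling in lymphocytes. Dtx1 was at 54.8 ± 16.2 CPM (SD, n = 2) in wild type, 20.5 ± 9.23 (n = 2) in miR-144/451-null, 33.1 ± 6.39 (n = 3) in Nrf2-null and 10.3 ± 4.27 (n = 3) in double-null. Il9r was at 1.12 to 6.00 CPM in double-null and 17.5 to 29.7 in wild type. In all, 215 of the 8407 genes had an r with Myc above 0.9.

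The highest r values with Mxd3 were those of Tuba1b (0.995), Kif22 (0.994), Ccna2 (0.993), Aurkb (0.993) and Tpx2 (0.993), and 512 of the 8407 genes were above 0.9. Here and for Myc, r was taken over all 10 libraries with genotype means left in, so a shared split between genotypes raises it. Tuba1b encodes an alpha tubulin, Kif22 a chromosome motor, Ccna2 cyclin A2, Aurkb the kinase Aurora B and Tpx2 a spindle assembly factor.
Ccna2 was at 721.8 ± 98.6 CPM (SD, n = 2) in wild type, 371.6 ± 8.58 (n = 2) in miR-144/451-null, 820.6 ± 72.7 (n = 3) in Nrf2-null and 314 ± 28.4 (n = 3) in double-null. Aurkb was at 198 ± 7.71, 105.3 ± 3.89, 257.2 ± 29.2 and 89.6 ± 15.2 CPM in the same order. The order of the genotypes was that of Mxd3 in both, over a smaller range. For Ccna2 the log2 difference was -0.96 ± 0.17 (SE) from wild type to miR-144/451-null and -1.39 ± 0.14 from Nrf2-null to double-null, beside -1.98 ± 0.27 and -2.94 ± 0.23 for Mxd3.
With library totals alone in place of TMM scaling, the 5 genes had r values of 0.986 to 0.993 with Mxd3 and the 5 genes named for Myc 0.96 to 0.978. Mxd3 also moved against the summed megakaryocyte markers (r = -0.94, 10 libraries). The sum was at 55.1 and 81 CPM in the wild type libraries, 107 and 155 in the miR-144/451-null ones, 36.6 to 58 in Nrf2-null and 124 to 167 in double-null. Most of it was 1 gene, Itga2b, with means of 52.8, 114.4, 34.2 and 127.8 CPM in the same order. Gp9, the next highest, went the other way, with means of 10.25, 8.83, 12.5 and 5.5 CPM. In double-null against Nrf2-null 4 of the 5 markers had a log2 difference above 0. With B cell markers the r of Mxd3 was 0.78. The part of cells with these markers in the level of Mxd3 was not tested.

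**Figure D3:**
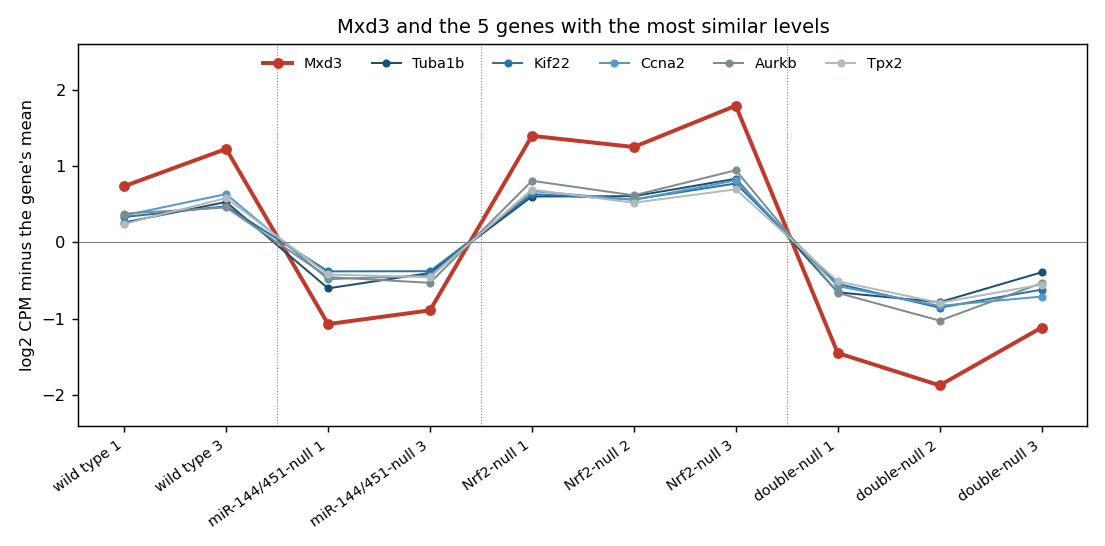
Log2 CPM of Mxd3 and of its 5 most similar genes in each library (x axis), each minus the mean of that gene over the 10 libraries (y axis); dotted lines part the genotypes. All 6 genes are lower in the 5 libraries without the cluster than in the 5 with it, and Mxd3, in red, has the widest range, from 11.3 CPM in double-null replicate 2 to 142.7 CPM in Nrf2-null replicate 3.

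Max, the shared partner, was higher without the cluster by a small margin. It was at 78.4 and 70.9 CPM in the wild type libraries, 103 and 87.7 in the miR-144/451-null ones, 69.3, 68.6 and 75.9 in Nrf2-null, and 97.4, 89.6 and 88.6 in double-null. All 5 libraries without the cluster were above the 5 with it.
The Max log2 difference was 0.37 ± 0.11 (SE) from Nrf2-null (71.3 ± 4.04 CPM, SD, n = 3) to double-null (91.8 ± 4.83, n = 3), a called difference. It kept that call under 5 of 16 other settings and lost it under 11, among them DESeq2, RLE scaling, a replicate block, a term for sex and leaving out wild type replicate 1, Nrf2-null replicate 1 or 2, or any double-null replicate, with values of 0.32 to 0.41 throughout. From 74.6 ± 5.31 (n = 2) in wild type to 95.3 ± 10.9 (n = 2) in miR-144/451-null it was 0.35 ± 0.14, not called. The counts of Max too were known when it was chosen, so its call is a description.
Max and Mxd3 were the only 2 of the 8 members whose 5 libraries without the cluster did not overlap the 5 with it. Such a gap was seen in 20.5% of all tested genes. Over the 10 libraries the log2 CPM of Max had an r of -0.885 with Mxd3 and -0.729 with Myc, and Myc had an r of 0.697 with Mxd3. Max had an r of 0.8 with the summed megakaryocyte markers, mostly Itga2b, and -0.72 with the B cell markers. The part of cells with these markers in the level of Max was not tested.

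The deposited FPKM values, which divide by gene length and library total, allow levels to be compared between genes. Mxd1 ranked first of the 8 in each library, at 88.1 to 134 FPKM. Mxi1, at 28.4 to 36.6 FPKM, and Max, at 18.3 to 30.0, came next, with Mxi1 in rank 2 or 3 and Max in ranks 3 to 5. Mxd3 spanned ranks 2 to 6, from 4.55 to 55.3 FPKM, and Myc ranks 4 to 7, from 2.80 to 20.6 FPKM. Mlx lay at 6.01 to 13.6 FPKM and Mga at 2.50 to 4.11, and Mxd4 ranked last in each library at 1.37 to 3.28. Mxd3 outranked Mxi1 in each library with the cluster and lay below Mlx in each library without it, whereas Mxd1 and Mxd4 kept the top and bottom ranks. These ranks depend on the 1 length per gene behind the FPKM, such as 8483 bases for Mxd4 and 1999 for Mlx. In CPM the ranges of Mxd4 (11.8 to 29.0) and Mlx (13.1 to 23.9) overlapped.
As a share of the summed FPKM of Mxd1, Mxi1, Mxd3 and Mxd4, Mxd3 made up 19.9% and 18.7% in wild type and 5.63% and 8.38% in miR-144/451-null. It made up 24.6%, 22.4% and 27.5% in Nrf2-null and 4.15%, 2.85% and 6.09% in double-null. The sum was 182 ± 29.0 FPKM (SD, n = 2) in wild type, 143 ± 15.6 (n = 2) in miR-144/451-null, 187 ± 12.5 (n = 3) in Nrf2-null, and it ran from 132 to 159 in the 3 double-null libraries. Mxd1 held 54.7% to 72.2% of it.
The ratio of Myc to Max FPKM was 0.964 ± 0.165 (SD, n = 2) in wild type, 0.453 ± 0.216 (n = 2) in miR-144/451-null, 0.745 ± 0.194 (n = 3) in Nrf2-null and 0.229 ± 0.125 (n = 3) in double-null. It ranged from 0.112 in double-null replicate 1 to 1.08 in wild type replicate 3, and miR-144/451-null replicate 3 (0.606) exceeded Nrf2-null replicate 3 (0.558). The ratio of Mxd3 to Myc was 1.57 and 1.91 in wild type and 0.964 and 0.636 in miR-144/451-null. It was 2.51, 2.97 and 5.12 in Nrf2-null and 2.1, 0.529 and 1.53 in double-null. It was thus below the Nrf2-null range in each double-null library, and both genes were lower there. Double-null replicate 1 lay above both wild type libraries.

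**Figure D4:**
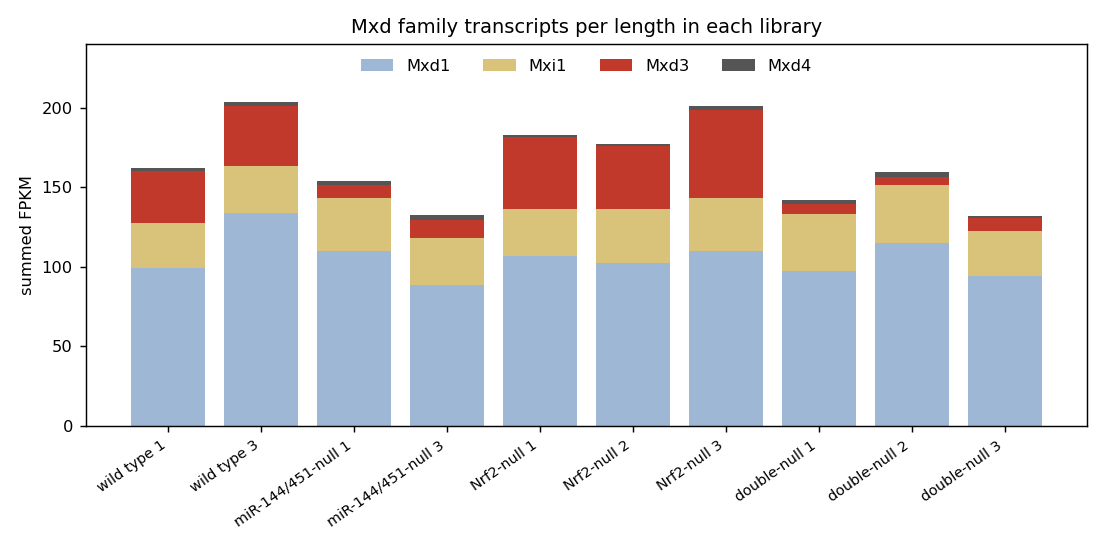
Summed FPKM (y axis, from 0) of Mxd1, Mxi1, Mxd3 and Mxd4 in each library (x axis), stacked by gene. Mxd1 is the largest part in each bar, at 54.7% to 72.2%, and the Mxd3 part is 18.7% to 27.5% in the 5 libraries with the cluster and 2.85% to 8.38% in the 5 without.

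The other Mxd genes did not share the pattern of Mxd3. Mxd1, the family member known for maturing blood cells, was at 628.8 and 1013 CPM in the wild type libraries, 742.4 and 527.8 in the miR-144/451-null ones, 766.7, 751.1 and 846.1 in Nrf2-null, and 747.2, 849.6 and 663.7 in double-null. The genotypes overlapped, and the 2 wild type libraries lay further apart than any other pair of 1 genotype. Its log2 difference was -0.37 ± 0.24 (SE) from wild type to miR-144/451-null and -0.06 ± 0.20 from Nrf2-null to double-null.
Mxi1 was at 143.5 and 174.9 CPM in the wild type libraries, 177.2 and 143.2 in the miR-144/451-null ones, 171.5, 198.6 and 204.9 in Nrf2-null, and 217.9, 214.5 and 159.3 in double-null. Its log2 differences on cluster loss were 0.01 ± 0.19 and 0.04 ± 0.16. Mxi1 and Mxd1 had an r of 0.649 over the 10 libraries.
Mxd4 was the lowest per length, at 16.9 and 19.8 CPM in the wild type libraries, 20.3 and 21.2 in the miR-144/451-null ones, 11.8, 13.3 and 20.6 in Nrf2-null, and 22.9, 29.0 and 13.2 in double-null. Its log2 differences were 0.18 ± 0.34 and 0.51 ± 0.28, and the other was called in 1 of 16 other settings, a term for sex (0.77 ± 0.24). Mxd4 shares 6.06% of its exon bases with the opposite-strand gene Gm42846, and Mxi1 2.84% with Gm10197.

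Mlx and Mga, the members with partners outside the Myc group, differed little. Mlx was at 17.6 and 23.0 CPM in the wild type libraries, 23.9 and 22.9 in the miR-144/451-null ones, 14.9, 17.6 and 13.1 in Nrf2-null, and 19.3, 21.0 and 18.6 in double-null. The double-null libraries lay above the Nrf2-null ones, with a log2 difference of 0.37 ± 0.17 (SE) that was not called, and 0.21 ± 0.20 between miR-144/451-null and wild type. Psmc3ip on the opposite strand shares 19.3% of the exon bases of Mlx, so part of its count may belong to that gene.
Mga was at 50.6 and 52.7 CPM in the wild type libraries, 47.1 and 53.3 in the miR-144/451-null ones, 49.3, 49.9 and 54.1 in Nrf2-null, and 52.0, 53.3 and 38.3 in double-null. Only double-null replicate 3 fell outside 47 to 55 CPM. The Mga log2 differences were -0.04 ± 0.17 and -0.10 ± 0.14.

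Of the 8 members, 1 was called between miR-144/451-null and wild type, Mxd3, which was lower. Over all tested genes 653 were called there (4.63%), with 2.4% higher and 2.23% lower. In double-null against Nrf2-null 3 members were called, Max higher and Myc and Mxd3 lower, beside 3850 of all genes (27.3%), with 14.4% higher and 12.9% lower. The median log2 difference of the members was -0.02 in the first comparison and -0.01 in the other, beside 0.02 and 0.02 over all tested genes. In males alone 1 of the 8 was called in double-null against Nrf2-null, Mxd3, beside 2914 of all tested genes. Nothing is read from these counts, since the members were chosen on the same libraries.

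Loss of Nrf2 gave no called member. By edgeR's quasi-likelihood test none of the 8 was called in Nrf2-null against wild type, beside 0.191% of all genes, and DESeq2 called none. At an unadjusted p under 0.05 there was 1 member, Mlx, with a log2 difference of -0.41 ± 0.18 (SE). Mxd3 was higher in each Nrf2-null library than in either wild type library, by a log2 difference of 0.50 ± 0.23.
In double-null against miR-144/451-null edgeR and DESeq2 again called none of the 8, beside 0.0638% of all genes by edgeR. There 1 member, Myc, had an unadjusted p under 0.05, with a log2 difference of -1.02 ± 0.39 and overlapping libraries, and it was called without the filter on low counts. The corresponding difference of Mxd3 was -0.47 ± 0.24, and the 3 double-null libraries lay below both miR-144/451-null libraries.
The interaction asks whether cluster loss had another effect without Nrf2 than with it. None of the 8 was called by edgeR or DESeq2, beside 0.0638% of all genes by edgeR, and 1, Mxd3, had an unadjusted p under 0.05. Its interaction was -0.97 ± 0.33 on the log2 scale, against -0.58 ± 0.56 for Myc and 0.01 ± 0.18 for Max. Without the filter on low counts the Mxd3 interaction was called. The comparisons share libraries, so their values stand side by side and are not independent of one another.

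**Figure D5:**
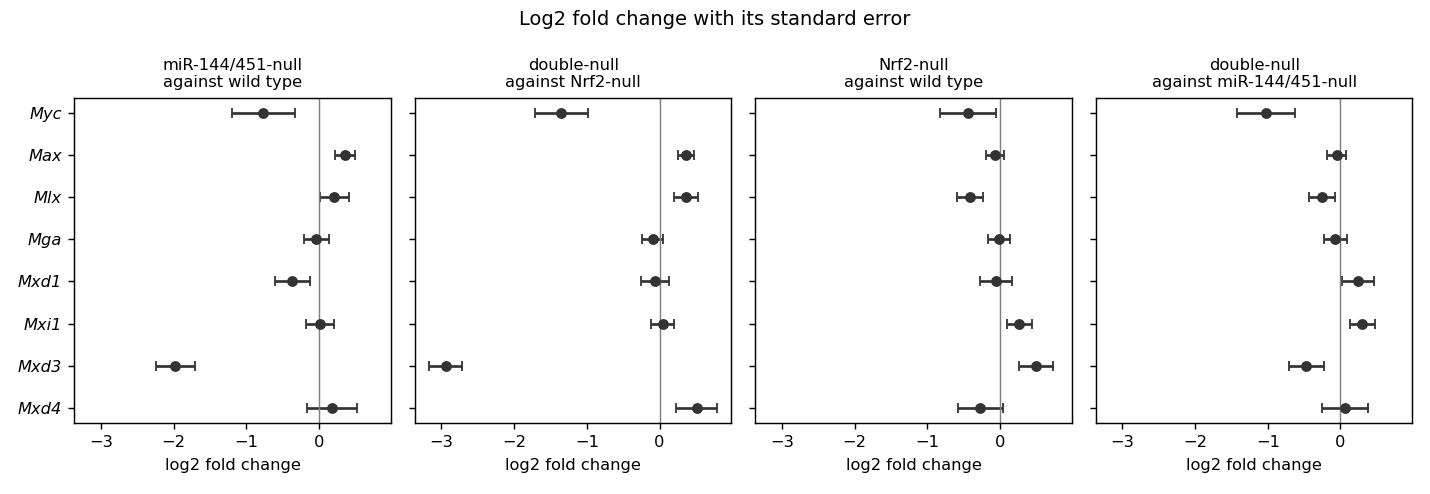
Log2 fold change (x axis) of each of the 8 genes in 4 genotype comparisons; whiskers are the standard error from the fit. Mxd3 stands furthest from 0 in both comparisons that remove the cluster, at -1.98 and -2.94, and Mxi1 and Mga lie within 0.1 of 0 there.

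Other genes of the network were tested as well. Mycn had 0 to 13 counts per library and Mycl 0 to 14, and Mlxipl had 0 to 2 and was not tested. Mnt, a repressor that also pairs with Max, was at 16.9 to 22.3 CPM in wild type, 14.2 to 21.6 in miR-144/451-null, 17.4 to 34.7 in Nrf2-null and 17.9 to 26.3 in double-null, and was called in neither cluster comparison.
Mlxip (MondoA), a partner of Mlx, was at 40.9 and 41.2 CPM in the wild type libraries, 23.4 and 31.9 in the miR-144/451-null ones, 35.2, 33.5 and 44.4 in Nrf2-null, and 21.8, 31.1 and 24.9 in double-null. Mlxip fell in double-null against Nrf2-null, with a log2 difference of -0.54 ± 0.18 (SE, adjusted p = 0.043). That call was lost under 8 of 16 other settings, among them leaving out wild type replicate 3, any Nrf2-null replicate, or double-null replicate 1 or 3. In miR-144/451-null against wild type it was -0.57 ± 0.22 (adjusted p = 0.181). The Mlxip 3′ UTR holds a miR-144-3p match, whose part in these values was not tested. Of the 3 targets listed for Mlx and its partners (Txnip, Arrdc4 and Hk2), edgeR and DESeq2 called none in either cluster comparison. Txnip alone had an unadjusted p under 0.05, with log2 differences of -0.53 ± 0.22 and -0.40 ± 0.18.

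The corepressor used by the Mxd proteins changed unevenly in double-null against Nrf2-null. Of its 14 listed genes 4 rose and 3 fell, beside 14.4% and 12.9% of all tested genes, with a median of -0.24. Sin3b, a scaffold to which Mxd proteins bind, was at 32.9, 39.1 and 39.1 CPM in Nrf2-null and 90.5, 89.7 and 80.2 in double-null, a log2 difference of 1.23 ± 0.13 (SE, adjusted p = 0.000134). Brms1 (0.90 ± 0.19, adjusted p = 0.00562) and Arid4b (0.76 ± 0.17, adjusted p = 0.00657) also rose. Rbbp4, a histone-binding subunit, fell (-0.59 ± 0.15, adjusted p = 0.0129), as did the deacetylase Hdac1 (-0.36 ± 0.11, adjusted p = 0.0281). Sin3a, the sister scaffold, was not called (-0.33 ± 0.14, adjusted p = 0.106).
Between miR-144/451-null and wild type 1 of the 14 was called, beside 4.63% of all tested genes, with a median of -0.04. This was Sin3b, which rose from 41.0 and 42.4 CPM to 75.6 and 59.6 (0.70 ± 0.16, adjusted p = 0.033), and it lost the call under 7 of 16 other settings, among them a term for sex and leaving out either wild type replicate, miR-144/451-null replicate 1 or Nrf2-null replicate 2.

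Among 10 genes of the Polycomb complex that holds Mga, 2 fell in each cluster comparison and none rose, beside 2.23% and 12.9% of all tested genes called lower, with medians of -0.02 and -0.05. E2f6, a repressive E2F factor, was at 37.4 and 36.2 CPM in wild type and 17.9 and 16.6 in miR-144/451-null, and at 47.1, 48.9 and 47.0 in Nrf2-null and 14.1, 17.0 and 14.99 in double-null. The libraries without the cluster were all below those with it, while those of Mga overlapped.
The E2f6 log2 difference was -1.10 ± 0.15 (SE, adjusted p = 0.00525) against wild type and -1.63 ± 0.13 (adjusted p = 4.17e-05) against Nrf2-null. The first lost its call with a term for sex (-1.15, adjusted p = 0.18) and without wild type replicate 3 (-1.11, adjusted p = 0.0512). Cbx3, a chromatin reader of the same complex, also fell, with log2 differences of -0.72 ± 0.17 (adjusted p = 0.0334) and -1.02 ± 0.14 (adjusted p = 0.000447), the first lost under 8 of 16 other settings, among them leaving out any wild type or miR-144/451-null replicate, Nrf2-null replicate 1 or double-null replicate 3.

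Genes known to be activated by Myc were then read as a list. Of 36 such genes (ribosome production, nucleotide and polyamine synthesis, cell cycle entry) 2 rose and none fell in double-null against Nrf2-null (14.4% and 12.9% of all tested genes), with a median log2 difference of 0.30 and 30 of 36 above 0. The 2 were Bop1, a ribosome assembly factor (0.97 ± 0.21, SE, adjusted p = 0.00715), and Phb (0.73 ± 0.24, adjusted p = 0.0453), the latter lost under 8 of 16 other settings, among them leaving out wild type replicate 3, Nrf2-null replicate 1 or 3, or double-null replicate 2 or 3. Without double-null replicate 1, 10 of the 36 were called higher, beside 1522 of all tested genes. Without the filter on low counts 10 of the 36 were called higher, beside 2054 of all genes. In males alone 1 was higher and 1 lower, beside 1659 and 1255 of all tested genes.
Between miR-144/451-null and wild type 1 of the 36 was called, beside 4.63% of all tested genes, Odc1, the first enzyme of polyamine synthesis. It fell from 1469 and 1624 CPM to 768.1 and 862.6 (-0.92 ± 0.21, adjusted p = 0.0329), a call lost under 7 of 16 other settings, among them leaving out any wild type or miR-144/451-null replicate or Nrf2-null replicate 1 or 2. The list's median there was 0.13. In Nrf2-null against wild type the list's median was -0.58 with 1 of 36 above 0. There edgeR and DESeq2 called none and 19 had an unadjusted p under 0.05. Over all 14110 tested genes the median was -0.02 with 6758 above 0, and sex cannot be told apart from genotype there. In double-null against miR-144/451-null the list's median was -0.27 with 4 of 36 above 0, beside -0.02 and 6713 for all tested genes. Neither tool called any of the 36 there, and 3 had an unadjusted p under 0.05. Myc itself had log2 differences of -0.44 ± 0.39 and -1.02 ± 0.39 in these comparisons, neither called.
Of 6 genes that Myc is known to repress, 2 rose in double-null against Nrf2-null, where 14.4% of all tested genes rose, Gadd45a (0.90 ± 0.25, adjusted p = 0.0239) and Ndrg2 (1.88 ± 0.62, adjusted p = 0.0442), with a median of 0.78. Gadd45a lost its call without Nrf2-null replicate 1 or 3 or double-null replicate 2. Ndrg2 lost its call without any one Nrf2-null or miR-144/451-null replicate or double-null replicate 1 or 2. The level of Ndrg2 was low, at 1.35 to 2.07 CPM in Nrf2-null and 1.51 to 11.25 in double-null, and the groups overlapped. Against wild type, miR-144/451-null had none of the 6 called by edgeR or DESeq2, and none had an unadjusted p under 0.05.

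Cofactors that Myc recruits and genes that control its turnover were called at shares near or below that of all tested genes (27.3%) in double-null against Nrf2-null. Of 14 cofactors 2 rose there, Trrap (0.56 ± 0.11, SE, adjusted p = 0.00302) and Zbtb17 (Miz1, 0.96 ± 0.19, adjusted p = 0.00346), through which Myc represses genes. Brd8 fell (-0.68 ± 0.14, adjusted p = 0.00445), and the list's median was 0.18. Of 9 turnover genes Fbxw7, the ubiquitin ligase subunit that marks Myc for destruction, rose (0.80 ± 0.20, adjusted p = 0.012). Gsk3b, a kinase that phosphorylates Myc, fell (-0.47 ± 0.13, adjusted p = 0.0189), and the median of the 9 was -0.07. The Gsk3b call was lost with a term for sex and without Nrf2-null replicate 1 or 3 or double-null replicate 2 or 3. Comparing miR-144/451-null with wild type, edgeR and DESeq2 called none of either list, with medians of 0.10 and 0.01, and an unadjusted p under 0.05 was seen for 2 cofactors, Trrap and Zbtb17, and 0 turnover genes.

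Division genes fell in both cluster comparisons, in the direction of Mxd3. Of 14 such genes 6 fell from wild type to miR-144/451-null and 11 from Nrf2-null to double-null, none rose, and the medians were -0.52 and -0.88. Over all tested genes 2.23% and 12.9% were called lower. Cenpf, a kinetochore protein, had log2 differences of -1.32 ± 0.20 (SE, adjusted p = 0.00672) and -1.92 ± 0.17 (adjusted p = 5.32e-05), the largest of the list in both and smaller than those of Mxd3. With a term for sex the count of 6 became 0. It was also 0 on leaving out wild type replicate 3 or miR-144/451-null replicate 1, 1 on leaving out miR-144/451-null replicate 3, and 2 on leaving out wild type replicate 1. The count of 11 ranged from 11 to 14 over the 16 other settings.
Of the 110 tested genes of these lists edgeR called none in Nrf2-null against wild type, double-null against miR-144/451-null or the interaction, where 28, 11 and 6 had an unadjusted p under 0.05. DESeq2 called 1 of them, Txnip, in double-null against miR-144/451-null, and 0 in the other 2 comparisons.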

How the data were processed

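RNA-seq of 10 libraries was used. The authors deposited raw counts per Ensembl gene and, per library, FPKM values, which equal the count divided by 1 constant per gene and the library total to within 0.1% for all 23612 genes compared. Per the submitters' processing notes the tools were CASAVA, Bowtie2 2.2.3, HISAT2 2.1.0 and TopHat2 and the build mm9; how reads were counted, and whether by strand, is not given in the sources used here. Coordinates and sequences are of GRCm38 (GENCODE M21) or GRCm38.p6 (RefSeq), and 99.6% of gene IDs matched a symbol.

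All libraries entered 1 fit in R 4.3.3 with edgeR 4.0.16 (filterByExpr, TMM, robust quasi-likelihood test, two-sided, genotype as the only term, 6 residual degrees of freedom). Benjamini-Hochberg adjustment ran over all 14110 tested genes, with calls at an adjusted p under 0.05. Likeness used log2 CPM with a prior count of 2. DESeq2 1.42.0, RLE scaling, library totals alone, no filter, a replicate block, a term for sex read from Xist and leaving out each library were alternatives. In a group left with 1 library, that library is assumed to vary like the others.

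Members and lists were chosen with earlier results of these data known. Besides the members and other network genes, named genes were up to 4 per list and cluster comparison with the smallest p, and the 5 genes most like Mxd3 and Myc; Sin3a and Hdac1 were chosen after their values were seen. A listed marker is not reported here and is left out of its list. Libraries of a group differed by more than sampling noise. Over all tested genes same-numbered libraries did not vary together (median r -0.02 over 13 pairs, from -0.111 to 0.287), so numbers were not taken as pairs. Other pairs had a median r of 0.02 (24 pairs, from -0.287 to 0.286). Mxd3 did follow the same order of replicate numbers in each genotype.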

Additional observations from a re-analysis of the deposited data

How the results depend on the processing

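Leaving out each library in turn gave 40 to 691 called genes for miR-144/451-null against wild type (653 with all), 2646 to 3929 for double-null against Nrf2-null (3850), 11 to 32 for Nrf2-null against wild type (27), 4 to 78 for double-null against miR-144/451-null (9) and 3 to 12 for the interaction (9). Double-null against Nrf2-null stayed between 2646 and 4346 under all settings run. For the other comparisons, in the same order, no filter on low counts gave 1254, 716, 743 and 232, and DESeq2 gave 1071, 134, 175 and 24. A replicate block, where numbers may mark no pairing, gave 429 for miR-144/451-null against wild type, 4 for double-null against miR-144/451-null, 5 for the interaction and 3471 for double-null against Nrf2-null. A term for sex, which only double-null replicate 3 separates from genotype, gave 1 for miR-144/451-null against wild type, 12 for Nrf2-null against wild type and 2 for the interaction. Library totals alone split the calls of miR-144/451-null against wild type into 497 higher and 247 lower, against 338 and 315, as the median of all genes moved to 0.15. The cause of these changes was not tested. Some uncalled log2 differences from wild type to miR-144/451-null changed sign. On leaving out each library Mnt ran from -0.47 to 0.16 (0.09 without wild type replicate 1), Phb from -0.13 to 0.44, Gadd45a from -0.33 to 0.59 (-0.22 without wild type replicate 1) and Ndrg2 from -0.12 to 1.12. With a term for sex Gadd45a was at -0.15 and Ndrg2 at -2.10. Groups of 2 and 3 libraries limit what can be called.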
